A study of Mus musculus with 3 samples.

Results

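The Hox cluster genes were examined in EpH4-PR cells, and comprised every probe of the array that was not a control spot and whose gene name was Hox followed by a cluster letter from a to d and a paralogue number. The rule gave 50 probes for 38 genes, of 29273 named genes or transcripts on the array, with 2 probes each for 12 genes and 1 probe each for 26. RefSeq lists 39 Hox cluster genes in the mouse, and Hoxc11 had no probe by the rule. EpH4 is a mouse mammary epithelial cell line, and EpH4-PR is EpH4 stably transfected with the A isoform of the progesterone receptor (PR-A) and kept as selected clones, so the values describe those clones. The cells were grown in DMEM with 10% FBS to about 75% confluence. RNA of EpH4-PR cells was labelled with Cy5 and hybridised on 3 two-colour arrays, each on its own slide, against a commercial mouse reference RNA labelled with Cy3. All 3 arrays carried the same cells and the same reference, and cells with the empty vector were not analysed here. Each ratio is therefore a level in EpH4-PR RNA relative to the reference RNA and not an effect of the receptor. The sources used here do not say whether the arrays came from separate cultures, so p-values measure only the spread between these arrays, which may be technical.

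Hox genes encode homeodomain transcription factors that specify position along the body axis. In mammals they lie in 4 clusters, and genes at matching places in different clusters form paralogue groups, of which the low numbers act towards the head and the high numbers towards the tail and the limb tips. Hox proteins bind DNA with cofactors of the TALE class (Pbx, Meis and Pknox), their clusters are silenced by Polycomb proteins and kept active by Trithorax proteins, and retinoic acid activates the low-numbered genes during development. In the mammary gland the paralogue group 9 genes Hoxa9, Hoxb9 and Hoxd9 are together required for growth of the gland in pregnancy.

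No Hox probe was called higher in EpH4-PR RNA than in the reference RNA, and 7 of 50 (14%) were called lower, one for each of Hoxc9, Hoxa7, Hoxb7, Hoxc6, Hoxa11, Hoxd8 and Hoxb2. A call required an adjusted p under 0.05 by limma, which fits all probes and adjusts by Benjamini-Hochberg, and a mean log2 ratio of 1 or more, or of -1 or less. Over all 41174 probes tested, 2.25% were called higher and 3.85% lower. The highest ratio of a Hox probe was 0.33, so no Hox probe could reach a call in that direction at any p, and the methods' t-test with unadjusted p also gave 0 higher and 7 lower. The median log2 ratio was -0.09 over the Hox probes and -0.01 over all probes, and 37 of the 50 Hox probes lay within 0.5 of 0. With median centring in place of the intensity-dependent loess, 1 Hox probe was called higher and 6 lower, beside 7029 higher and 709 lower over all probes (928 and 1584 with loess). In RNA of a whole culture, fewer cells with a transcript and less of it per cell cannot be told apart.

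**Figure D1:**
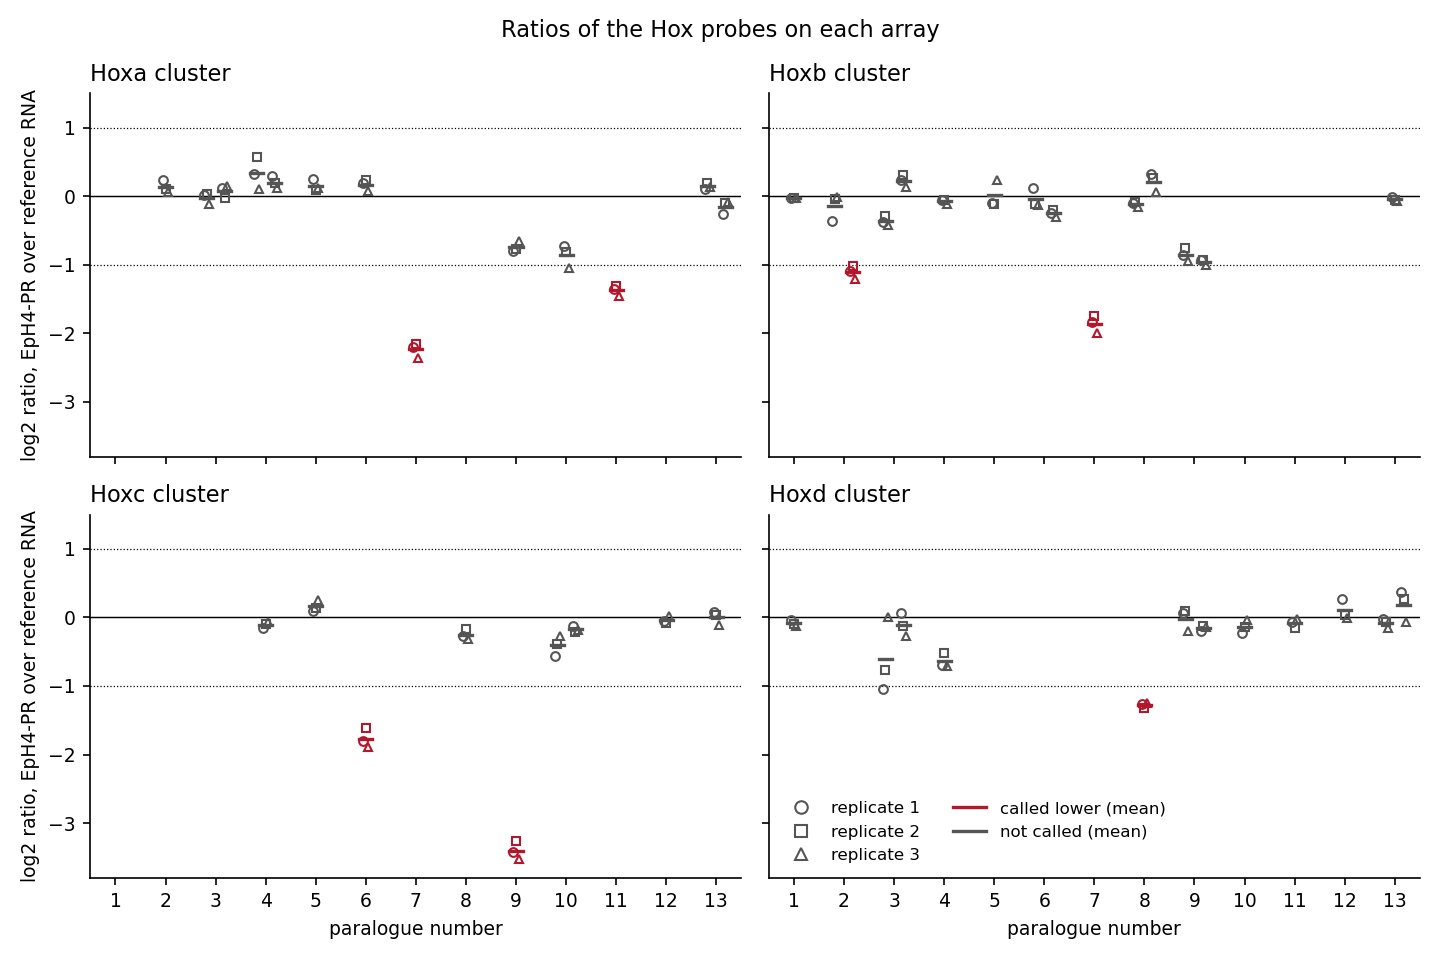
Log2 ratio (y axis, EpH4-PR RNA divided by reference RNA) for the Hox probes shown on the 3 arrays (symbols), by cluster (panels) and paralogue number (x axis), with the mean as a bar and dotted lines at the ratios of 1 and -1 that a call required. The 7 probes called lower lie at -1.10 to -3.41, and no Hox probe has a mean above 0.33.

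Promoters were read from RefSeq for the called genes that had one in the table used here (Hoxa7, Hoxa11 and Hoxd8) and, beside them, for Hoxc4, which was not called and had a clear signal in both channels. Each sequence runs 5′ to 3′ along the strand of the gene, from 250 bases before to 50 after its start in assembly GRCm38.p6. Capitals mark the half-site of the progesterone receptor (AGAACA) in Hoxa11 and the nuclear receptor half-site (AGGTCA) in Hoxd8 and, on the opposite strand, in Hoxc4. Hoxa7 held none of the motifs searched.
Hoxa7, chr6:52218524-52218823, - strand: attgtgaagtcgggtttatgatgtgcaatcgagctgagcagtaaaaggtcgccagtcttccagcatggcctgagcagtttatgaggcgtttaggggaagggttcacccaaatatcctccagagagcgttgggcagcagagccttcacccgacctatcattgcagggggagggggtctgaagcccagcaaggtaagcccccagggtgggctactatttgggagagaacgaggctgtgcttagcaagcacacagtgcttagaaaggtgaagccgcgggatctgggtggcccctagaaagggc
Hoxa11, chr6:52245761-52246060, - strand: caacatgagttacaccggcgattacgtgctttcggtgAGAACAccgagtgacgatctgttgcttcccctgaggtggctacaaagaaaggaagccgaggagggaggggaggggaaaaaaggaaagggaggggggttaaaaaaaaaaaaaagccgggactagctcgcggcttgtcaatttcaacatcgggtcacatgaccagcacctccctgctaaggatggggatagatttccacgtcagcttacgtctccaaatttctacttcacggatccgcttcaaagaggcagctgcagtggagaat
Hoxd8, chr2:74704365-74704664, + strand: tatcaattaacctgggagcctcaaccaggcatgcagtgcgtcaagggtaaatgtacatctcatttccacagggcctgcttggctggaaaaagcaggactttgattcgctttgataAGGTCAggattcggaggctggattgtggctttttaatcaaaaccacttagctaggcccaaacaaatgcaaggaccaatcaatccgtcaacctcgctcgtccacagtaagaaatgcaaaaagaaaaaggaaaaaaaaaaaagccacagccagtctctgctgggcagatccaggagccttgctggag
Hoxc4, chr15:103034145-103034444, + strand: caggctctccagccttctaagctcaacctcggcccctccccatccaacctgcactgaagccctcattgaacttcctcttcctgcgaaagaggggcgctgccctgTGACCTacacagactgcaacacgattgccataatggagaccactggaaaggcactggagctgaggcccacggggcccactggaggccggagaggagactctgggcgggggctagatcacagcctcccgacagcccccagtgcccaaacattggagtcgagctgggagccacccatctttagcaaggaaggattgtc

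The table held 24 promoters for 22 of the 38 Hox genes on the array. On either strand, AGAACA stood in 2 of these 24 (8.33%), those of Hoxa9 and Hoxa11, and in 19.0% of all 32851 promoters. AGGTCA stood in 7 of 24 (29.2%, all promoters 16.3%), namely Hoxa5, Hoxb4, Hoxc4, Hoxd3, Hoxd4, Hoxd8 and Hoxd10. The motif TGATTNAT, which Pbx and Hox proteins bind as a pair, stood in Hoxa2 and Hoxd11 (8.33%, all promoters 3.22%), and the TATA box TATAAA in Hoxa10, Hoxb8, Hoxd4 and Hoxd13 (16.7%, all promoters 13.6%). Each promoter shown held at most 1 match, so no matches overlap there. The median number of CpG dinucleotides was 14.5 in Hox promoters and 7 in all promoters. Of the promoters shown, Hoxa7 had 9, Hoxa11 15, Hoxd8 6 and Hoxc4 9. A match describes the letters of the window and was not tested for binding.

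Most Hox probes were dim, so the level at which a spot counted as detected was set by the negative control spots of the array, of which there were 314. The scanner software marks spots as well above background, yet it marked 46.5% to 53.5% of the negative control spots in Cy3 and 0.637% to 5.10% of them in Cy5. A probe was therefore also asked to exceed the 95th percentile of the negative controls of its channel on all 3 arrays, which was 85.9, 87.4 and 62.9 scanner units in Cy5 and 162, 168 and 107 in Cy3. Ratios of the 50 Hox probes correlated between arrays at r = 0.947 to 0.975, as a description across probes that share slides and dyes. The median SD between arrays was 0.09 for Hox probes and 0.09 for all probes. No Hox spot was saturated or an outlier.

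By this rule 27 Hox probes of 22 genes were detected in EpH4-PR RNA and 13 probes of 12 genes in the reference RNA, against 66.8% and 33.2% of all probes. In EpH4-PR RNA these included Hoxa3, Hoxa4, Hoxa5, Hoxa6, Hoxa7, Hoxa9 and Hoxa13 of the Hoxa cluster and Hoxb2, Hoxb3, Hoxb4, Hoxb5, Hoxb6, Hoxb7 and Hoxb9 of the Hoxb cluster. The Hoxc cluster gave Hoxc4, Hoxc5 and Hoxc6, which lie beside each other, and the Hoxd cluster gave Hoxd3, Hoxd9, Hoxd12 and Hoxd13. By paralogue number, 5 of 8 genes numbered 1 to 3 were detected in EpH4-PR RNA, 11 of 15 numbered 4 to 8, and 6 of 15 numbered 9 to 13. Hoxb1, Hoxc8, Hoxc10, Hoxc12, Hoxc13, Hoxd1, Hoxd4, Hoxd11 and Hoxa11 did not exceed the negative controls in Cy5 on any array. With the scanner's own flag on all 3 arrays the counts were 24 genes in EpH4-PR RNA and 32 in the reference RNA. That flag also marked 46.5% to 53.5% of the negative control spots in Cy3, and its share over all probes was not counted.

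**Figure D2:**
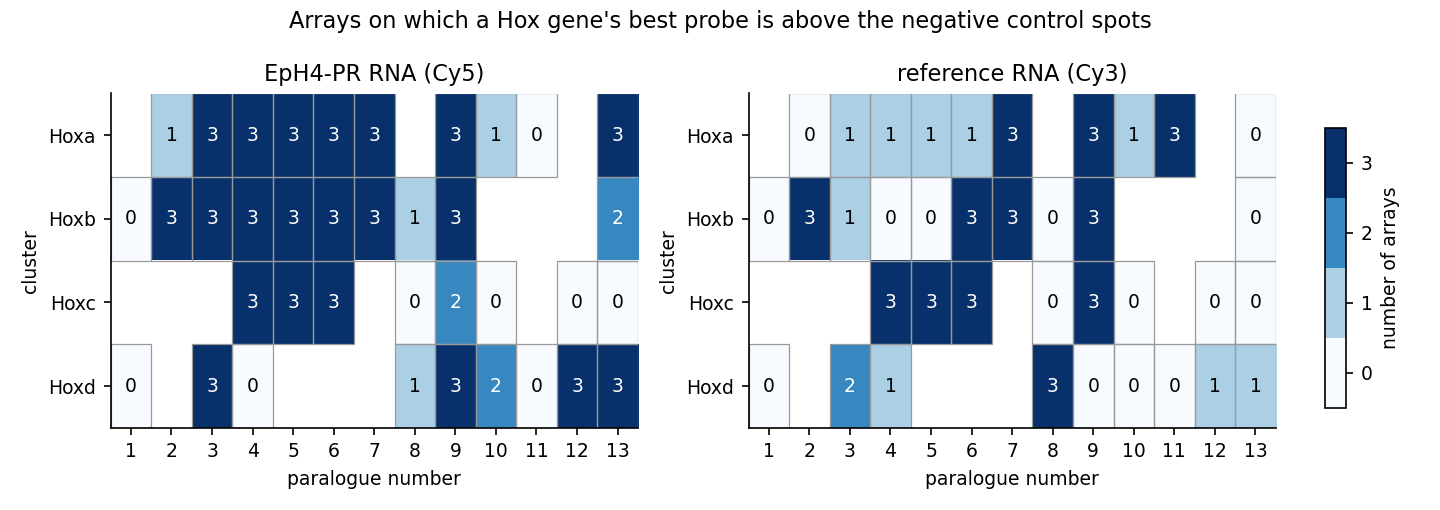
Number of arrays, from 0 to 3, on which the best probe of each Hox gene exceeded the 95th percentile of the negative control spots, by cluster (y axis) and paralogue number (x axis), in EpH4-PR RNA (left) and reference RNA (right). Blank places have no gene, no probe or no value shown. Of the 37 genes shown, 21 reach 3 arrays in EpH4-PR RNA and 12 do in reference RNA.

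Of the 50 probes, 10 were detected in both channels and 17 in EpH4-PR RNA alone. The 3 probes detected in the reference RNA alone were those of Hoxa11, Hoxc9 and Hoxd8, all called lower. A further 20 probes did not pass on all 3 arrays in either channel, and 12 of these passed on no array. This split was not counted over all probes of the array, so it is not read as particular to the Hox probes. Because the negative controls reached higher values in Cy3 than in Cy5, a probe seen in Cy5 alone was not thereby higher in EpH4-PR cells.

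The called probes are described first, by size. Hoxc9, which specifies thoracic identity, had the lowest ratio. Its raw intensity in EpH4-PR RNA was 84.2, 89.4 and 73.9 on replicates 1, 2 and 3, close to the negative controls and above their 95th percentile on 2 of the 3 arrays. In the reference RNA it was 506, 478 and 472. Its log2 ratio was -3.43, -3.27 and -3.53 (mean -3.41, SD 0.13, SE 0.06, n = 3, limma adjusted p = 1.3e-05). Since its signal in EpH4-PR RNA was so close to the negative controls, no fold is given, and the mean ran from -5.48 to -2.75 under the other ways of processing. On each array this was the lowest ratio of any Hox probe.

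Hoxa7 and Hoxb7, the only paralogue group 7 genes with a probe, were both called lower and both exceeded the negative controls in both channels. Hoxa7 read 128, 131 and 115 in EpH4-PR RNA and 356, 346 and 332 in the reference RNA. Its log2 ratio was -2.19, -2.15 and -2.36 (mean -2.23, SD 0.11, n = 3, limma adjusted p = 2.2e-05), which is 4.71-fold lower. Under the other ways of processing the mean of Hoxa7 ran from -3.21 to -1.56. Hoxb7, which is also studied for its part in breast cancer, read 128, 134 and 115 in EpH4-PR RNA and 302, 290 and 274 in the reference RNA. Its log2 ratio was -1.83, -1.74 and -1.999 (mean -1.86, SD 0.13, n = 3, limma adjusted p = 3.5e-05), which is 3.63-fold lower. The mean of Hoxb7 ran from -2.74 to -1.25 under the other ways of processing.

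Hoxc6, a thoracic gene expressed in the developing mammary gland, read 129, 126 and 119 in EpH4-PR RNA and 297, 265 and 265 in the reference RNA. Its log2 ratio was -1.81, -1.61 and -1.90 (mean -1.77, SD 0.15, n = 3, limma adjusted p = 4.7e-05), which is 3.42-fold lower. The mean of Hoxc6 ran from -2.66 to -1.19 under the other ways of processing. Hoxa11, required in the uterus and the limb, read 71.0, 81.5 and 59.8 in EpH4-PR RNA and was not well above background there on any array. In the reference RNA it read 192, 198 and 158. Its ratio gives only a bound for this way of processing, with a level at least 2.59-fold lower in EpH4-PR RNA (log2 ratio -1.36, -1.31 and -1.45, limma adjusted p = 3.9e-05). This bound is the same as the plain ratio, since its own signal lay above the lowest signal well above background. With no background correction its mean ratio was -1.07, a smaller difference, so the bound does not hold over all ways of processing.

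Hoxd8 read 85.3, 87.0 and 63.4 in EpH4-PR RNA, well above background and above the negative controls on 1 of the 3 arrays, and 201, 200 and 150 in the reference RNA. Its log2 ratio was -1.26, -1.32 and -1.24 (mean -1.28, SD 0.04, n = 3, limma adjusted p = 3.6e-05), a value that rests on this dim signal and falls short of a call with no background correction (-0.998). Hoxb2, a gene of hindbrain patterning, read 89.9, 93.0 and 78.9 in EpH4-PR RNA and 194, 185 and 159 in the reference RNA with its RefSeq probe. That probe had log2 ratios of -1.09, -1.02 and -1.20 (mean -1.10, SD 0.09, n = 3, limma adjusted p = 8.7e-05), and fell short of a call with no background correction (-0.88) and with median centring (-0.98). The second Hoxb2 probe, made to a cDNA clone, had a mean of -0.14 (limma adjusted p = 0.23) and was well above background in each channel on 1 array. It exceeded the negative controls on 1 array in EpH4-PR RNA and on none in the reference RNA. With so dim a signal, its ratio neither bears out nor contradicts that of the RefSeq probe.

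**Figure D3:**
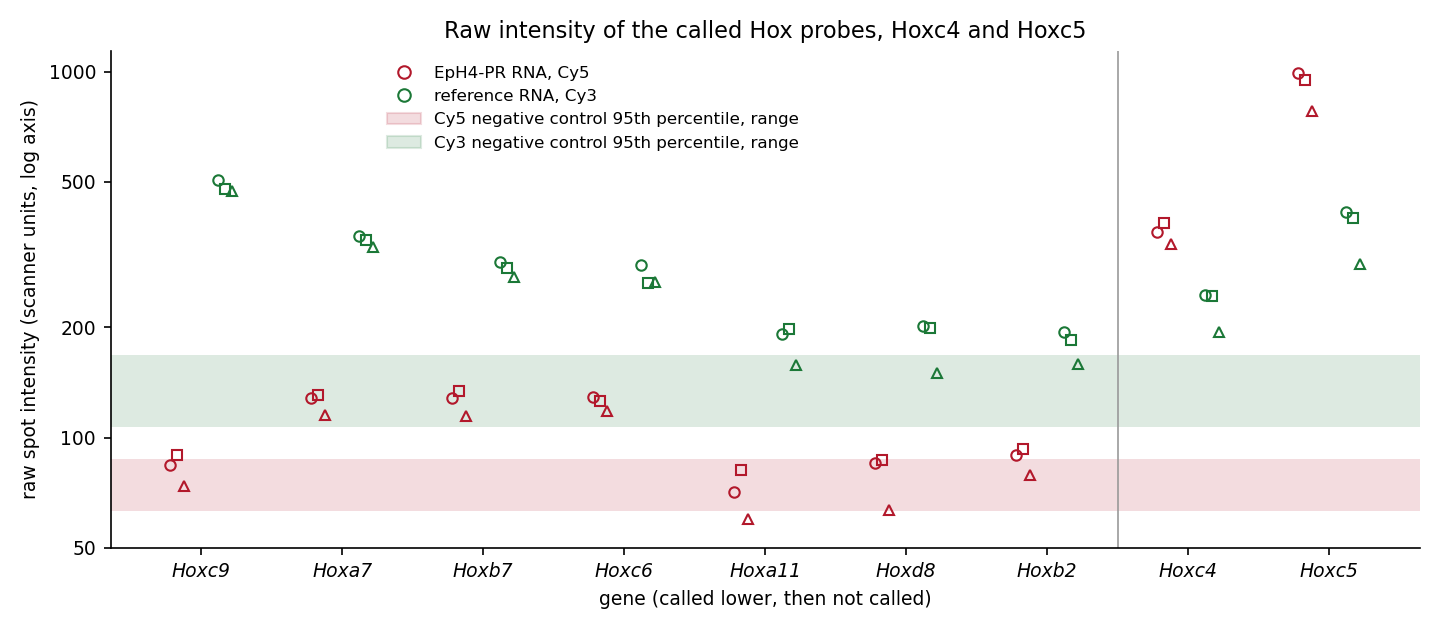
Raw spot intensity on a log axis (y axis, scanner units) of the 7 Hox probes called lower and of Hoxc4 and Hoxc5 (x axis), on each of the 3 arrays (symbols as in the plot of ratios by cluster) in Cy5 (red) and Cy3 (green), with the range over arrays of the 95th percentile of the negative control spots as bands. Hoxc9 stands at 73.9 to 89.4 in Cy5 and 472 to 506 in Cy3, while Hoxc5 stands at 782 to 991 in Cy5.

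Hoxc5 and Hoxc4, which pattern the neck and upper trunk, lay furthest above the negative controls in Cy5 of all Hox genes. Hoxc5 read 991, 951 and 782 in EpH4-PR RNA, 12.8 to 13.7 times the median negative control spot, and 414, 398 and 299 in the reference RNA, 3.25 to 3.46 times. Hoxc4 read 365, 386 and 338 in EpH4-PR RNA, 5.04 to 5.90 times the median negative control, and 246, 244 and 194 in the reference RNA, 2.01 to 2.11 times. After loess the log2 ratio of Hoxc5 was 0.10, 0.15 and 0.26 (mean 0.17, SD 0.08, n = 3, limma adjusted p = 0.045), below the ratio that a call required. That of Hoxc4 was -0.15, -0.10 and -0.06 (mean -0.10, SD 0.04, n = 3, adjusted p = 0.11). With median centring the means were 1.30 for Hoxc5, which was then called higher, and 0.76 for Hoxc4, so the sign for Hoxc4 turned with the scaling. No dyes were swapped, and an intensity-dependent dye effect cannot be told apart from a difference in level for these probes.

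In the Hoxc cluster Hoxc6 lies next to Hoxc5. The log2 ratio of Hoxc5 exceeded that of Hoxc6 by 1.91, 1.76 and 2.15 on the 3 arrays (mean 1.94, SD 0.20), and by 2.11 to 2.90 at the mean with median centring, the scanner's ratio and a background from negative controls. In the Hoxa cluster Hoxa6 exceeded its neighbour Hoxa7 by 2.39, 2.38 and 2.43 (mean 2.40, SD 0.03), and in the Hoxb cluster the probes of Hoxb6 exceeded Hoxb7 by 1.82 (SD 0.17) and 1.61 (SD 0.08). In the reference RNA, the Hoxa6 probe and the Hoxb6 probe at 1.82 each exceeded the negative controls on only 1 array. These pairs were chosen after their values were seen and are given as a description, and 3 arrays cannot reach an exact two-sided p below 0.25. On all 3 arrays and under all 4 settings compared, the first gene of each of these pairs had the higher ratio.

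Of the genes numbered 1 to 3, Hoxb2 alone was called, and most others lay near 0. Hoxa2 had ratios of 0.23, 0.11 and 0.06. The probes of Hoxa3, a gene of the pharyngeal arches, gave 0.02, 0.03 and -0.11 for one and 0.12, -0.02 and 0.15 for the other. Those of Hoxb3 had opposite signs, at -0.37, -0.29 and -0.42 for the RefSeq probe (adjusted p = 0.0027) and 0.24, 0.31 and 0.13 for the other, made to an expressed sequence tag (adjusted p = 0.019). Both rest on a dim reference signal, which exceeded the negative controls on 1 array for the RefSeq probe and on none for the other. One Hoxd3 probe gave 0.06, -0.13 and -0.27, while the other gave -1.05, -0.76 and 0.00, with replicate 3 at the level of the negative controls in both channels. Hoxb1 and Hoxd1 had no probe well above background on all 3 arrays in either channel.

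Among the genes numbered 4 to 8 most probes lay near 0, beside the called Hoxa7, Hoxb7, Hoxc6 and Hoxd8 and a lower ratio of Hoxd4. Hoxa4 had the highest ratios of any Hox gene, at 0.32, 0.57 and 0.11 for one probe (mean 0.33, SD 0.23, adjusted p = 0.035) and 0.29, 0.19 and 0.12 for the other (adjusted p = 0.028). Hoxa5, which is needed for lung development, had ratios of 0.25, 0.10 and 0.12, and Hoxa6 of 0.20, 0.23 and 0.07 (adjusted p = 0.045). The 3 genes of the Hoxa cluster between Hoxa3 and Hoxa7 thus had a ratio above 0 on every array, although the second Hoxa4 probe turned to -0.05 at the mean with median centring. In the reference RNA none of their probes exceeded the negative controls on more than 1 array, so these ratios rest on a dim reference signal.

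Hoxb4, known for its part in blood stem cells, had ratios of -0.05, -0.06 and -0.12. Hoxb5 had -0.09, -0.11 and 0.24. Hoxb6 read 149, 163 and 140 in EpH4-PR RNA with one probe, at ratios of 0.12, -0.12 and -0.13, and 226, 253 and 211 with the other, at -0.24, -0.21 and -0.30 (adjusted p = 0.0079). Both Hoxb6 probes had a ratio above 0 with median centring, at 0.26 and 0.41. Hoxc8, a thoracic gene, did not exceed the negative controls in either channel on any array, at ratios of -0.28, -0.16 and -0.32. Hoxd4, at -0.69, -0.52 and -0.71 (adjusted p = 0.00063), exceeded the negative controls on no array in EpH4-PR RNA and on 1 in the reference RNA. The 2 probes of Hoxb8 gave means of -0.11 and 0.21 and were at the level of the negative controls.

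In paralogue group 9, Hoxc9 was called lower, as given above. Of the genes of this group that are together required for mammary growth in pregnancy, Hoxa9 and Hoxb9 were detected in both channels. Their ratios lay below 0 without reaching a call. Hoxa9 read 106, 93.5 and 73.3 in EpH4-PR RNA and 183, 170 and 125 in the reference RNA. Its log2 ratio was -0.81, -0.78 and -0.65 (mean -0.74, SD 0.08, adjusted p = 0.00025). The Hoxb9 probes read 118, 138 and 105, and 102, 102 and 84.6, in EpH4-PR RNA. Their ratios were -0.86, -0.76 and -0.94 (mean -0.85, SD 0.09, adjusted p = 0.00019) and -0.93, -0.93 and -1.004 (mean -0.95, SD 0.04, adjusted p = 7.7e-05), so both probes agreed in sign and size. The Hoxd9 probes gave 0.06, 0.09 and -0.20, and -0.20, -0.12 and -0.14. Neither Hoxd9 probe exceeded the negative controls in the reference RNA on any array.

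Of the genes numbered 10 to 13, Hoxa10, required in the uterus for implantation, read 81.2, 84.1 and 67.4 in EpH4-PR RNA and 160, 166 and 141 in the reference RNA. It exceeded the negative controls on only 1 of the 3 arrays in each channel. Its ratios were -0.73, -0.81 and -1.04 (mean -0.86, SD 0.16, limma adjusted p = 0.00052). The probes of Hoxc10 gave -0.56, -0.39 and -0.27, and -0.12, -0.21 and -0.19, with both channels at the level of the negative controls on all 3 arrays. Hoxd10 gave -0.23, -0.13 and -0.04, and did not exceed the negative controls in the reference RNA on any array. Hoxa13, which acts in the limb tips and genital tract, gave 0.10, 0.20 and 0.14 for the probe detected in EpH4-PR RNA (adjusted p = 0.045), and a mean of -0.15 for the other probe. Neither Hoxa13 probe exceeded the negative controls in the reference RNA on any array.

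Hoxb13, a gene of the prostate and tail, gave -0.02, -0.05 and -0.07, and Hoxc13, a gene of the hair follicle, 0.08, 0.03 and -0.11. Hoxd12 read 138, 143 and 100 in EpH4-PR RNA, with ratios of 0.27, 0.04 and 0.00. One Hoxd13 probe, made to a cDNA clone, read 137, 137 and 125 there, with ratios of 0.37, 0.26 and -0.07, while its RefSeq probe read 72.9, 77.6 and 56.0, at the level of the negative controls. The 2 probes of Hoxd13 therefore disagreed on whether the gene was detected. Hoxc12 and Hoxd11 were not well above background on all 3 arrays in either channel.

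Over the 40 probes that were well above background in at least 1 channel on all 3 arrays, 22 had a ratio below 0 on every array, 8 had one above 0 on every array, and 10 changed sign. The other 10 probes had means from -0.60 to 0.21. Of all 50 probes, 25 had an adjusted p under 0.05, of which 18 lay below 0 and 7 above, and the 18 of them that were not called had means from -0.95 to 0.33. The shares of all probes on the array that passed this threshold, or kept the same sign on every array, were not counted. These counts are therefore not read as particular to the Hox probes. By cluster, 2 of 14 Hoxa probes, 2 of 15 Hoxb probes, 2 of 9 Hoxc probes and 1 of 12 Hoxd probes were called lower. Their median ratios were 0.03, -0.11, -0.17 and -0.10. By paralogue number, 1 of 12 probes numbered 1 to 3, 4 of 18 numbered 4 to 8 and 2 of 20 numbered 9 to 13 were called lower, and the called probes lay in paralogue groups 2, 6, 7, 8, 9 and 11. Whether these shares differ between clusters or groups was not tested.

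The size of the ratios depended on how background was removed. The median negative control spot read 91.8 to 121 in Cy3 over a local background of 39 to 43, so signal remained on dim spots after the local background was removed. Without the offset of 50 in the background model, the ratio of Hoxc9 was -5.05 and 13 Hox probes were called lower, and with the scanner's own ratio it was -5.48 and 14 were. Both sets held the 7 probes above with probes of Hoxa9, Hoxa10, Hoxb9, Hoxc10 and Hoxd4, and the larger one also held Hoxc8. With no background correction 5 Hox probes were called lower, since Hoxb2 (-0.88) and Hoxd8 (-0.998) fell short of a call. Over all probes, 3909 were called lower without the offset, 3887 with the scanner's ratio and 1304 with no background correction, beside 1584 with the offset. The Hox counts are to be read against these.

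**Figure D4:**
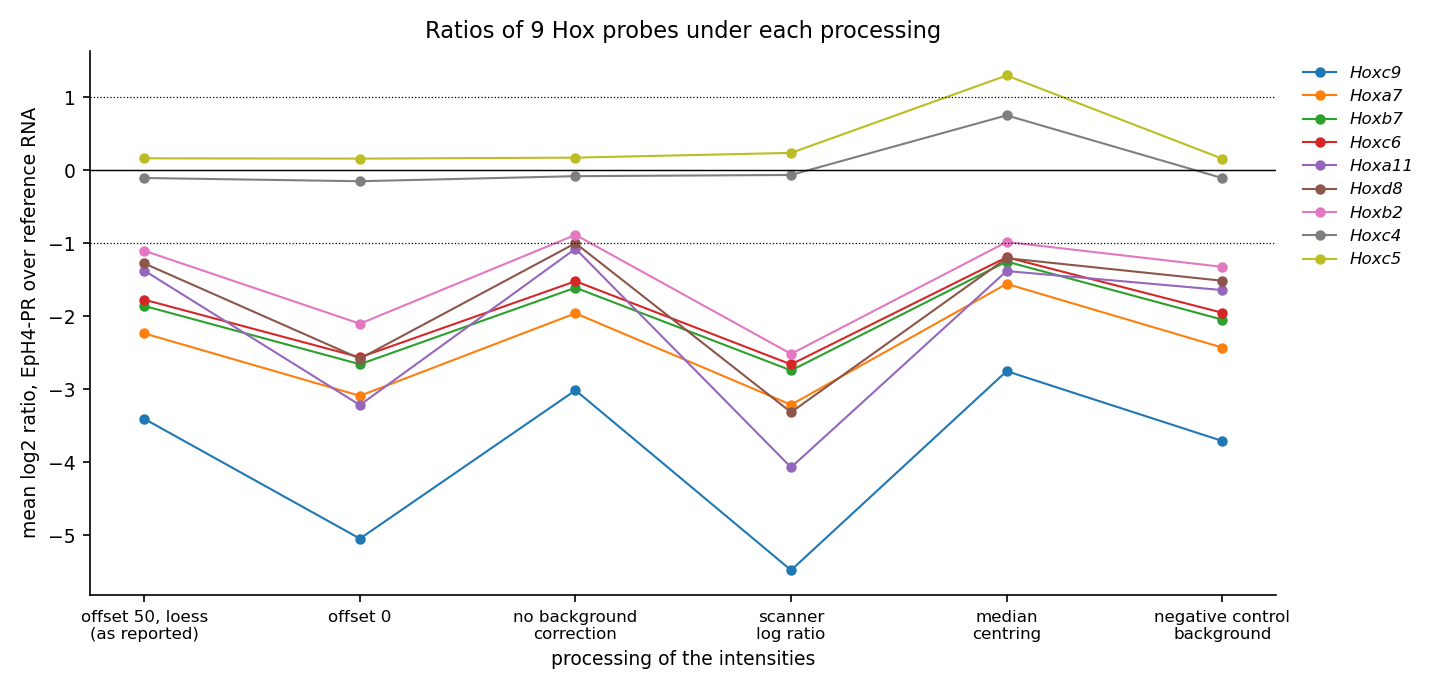
Mean log2 ratio over 3 arrays (y axis) of the 7 Hox probes called lower and of Hoxc4 and Hoxc5 under 6 ways of processing the same intensities (x axis), with dotted lines at 1 and -1. The 7 probes stay below 0 in all 6, with Hoxc9 between -5.48 and -2.75, while Hoxc5 passes 1 with median centring (1.30).

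The partners and regulators of Hox genes were taken as lists. Of the TALE cofactors, 9 genes with 18 probes, none was called higher and 2 probes were called lower (median -0.12), both of Meis2, a homeodomain partner of Hox proteins. Meis2 read 338, 329 and 340 in EpH4-PR RNA with one probe, at ratios of -1.55, -1.46 and -1.55 (mean -1.52, adjusted p = 2.8e-05), and its other probe gave -2.04, -2.08 and -2.19 (mean -2.10, adjusted p = 1.9e-05). Detected in EpH4-PR RNA were 8 of these 9 genes. The homeobox genes that flank or parallel the clusters (Evx, Cdx, Gsx and Pdx1) gave no call in 8 probes (median -0.07).

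The Polycomb list, 18 genes with 33 probes, had 2 probes called higher and none lower (median 0.02). These were one probe of Phc2, a subunit of the Polycomb complex that compacts chromatin, at 1.49, 1.51 and 1.36 (mean 1.45, adjusted p = 3.8e-05), and one of Suz12, a subunit of the one that methylates histone H3, at 1.15, 1.14 and 1.16 (mean 1.15, adjusted p = 4.2e-05). Other probes gave 0.41 for Suz12 and -0.20 for Phc2, below the ratio of a call, and this Phc2 probe exceeded the negative controls on no array in either channel. Of the Trithorax and H3K27 demethylase genes, 12 genes with 20 probes, 1 probe was called higher and none lower (median 0.14). It was a probe of Wdr5, a subunit of Trithorax-type methyltransferases, at 1.33, 1.19 and 1.03 (mean 1.19, limma adjusted p = 0.00015). This probe exceeded the negative controls in the reference RNA on no array. The other Wdr5 probe, which exceeded them in both channels on all 3 arrays, gave 0.19.

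Of the retinoic acid genes, 13 genes with 18 probes, none was called higher and 3 probes were called lower (median -0.16). Crabp1, which binds retinoic acid in the cytoplasm, had the lowest ratio of these, at -2.20, -2.01 and -2.23 (mean -2.14, adjusted p = 2.5e-05). Aldh1a1, which makes retinoic acid, had a mean of -1.57. Geminin and the boundary factors, 4 genes with 6 probes, gave no call (median 0.27). The counts of these lists with loess are to be read against the 2.25% higher and 3.85% lower of all probes. With median centring, 7029 of all 41174 probes were called higher and 709 lower, and the counts that follow are to be read against these. In that setting 13 Polycomb, 11 Trithorax and 5 geminin and boundary probes were called higher. The probes called lower fell from 3 to 1 in the retinoic acid list, in which 1 was then called higher, and from 2 to 1 in the TALE list, where both had been of Meis2.

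**Figure D5:**
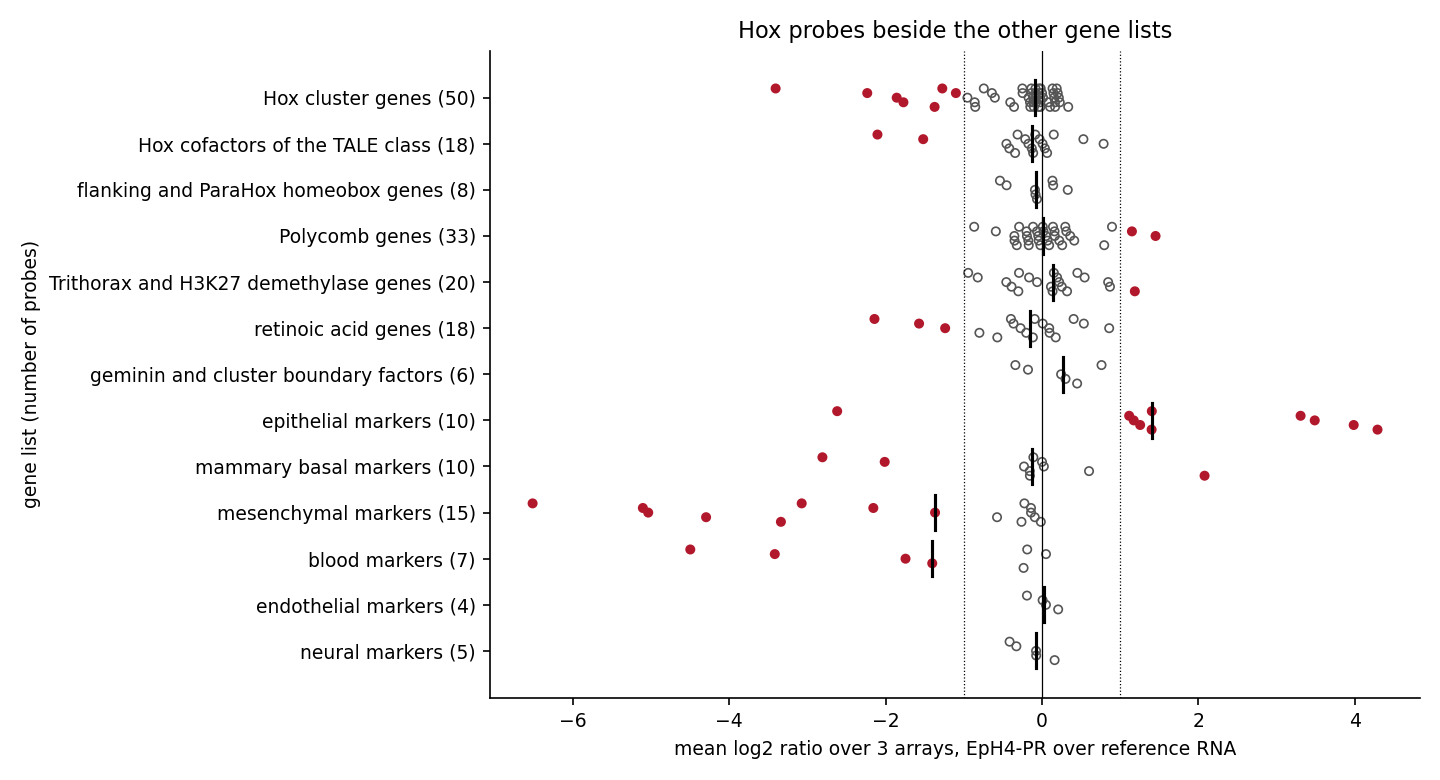
Mean log2 ratio over 3 arrays (x axis) of every probe of the Hox genes and of each other list (y axis, number of probes in brackets), with called probes filled red and the median of each list as a black bar. The Hox probes have a median of -0.09, and the mesenchymal markers of -1.37.

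The labelled cell type was checked against markers. Epithelial markers had 9 of 10 probes called higher and 1 lower (median 1.40), from Cdh1 at 4.29 to Krt19 at -2.62, and their summed raw intensity was 137800 to 161000 in EpH4-PR RNA and 12930 to 14140 in the reference RNA. Mammary basal markers had 1 probe of 10 called higher, of Krt14 (2.08), and 2 lower, both of Acta2 (-2.81, and -2.01 for a probe well above background in EpH4-PR RNA on 1 array), while a further Acta2 probe gave 0.60 (adjusted p = 0.00094), so the Acta2 probes disagreed. The summed intensity of the basal list was 9828 to 10230 in EpH4-PR RNA and 4616 to 4933 in the reference RNA, at a median log2 ratio of -0.13. Raw sums of the dyes are not on a common scale, since those of the Polycomb list were 29460 to 32600 and 12160 to 13350 at a median of 0.02. The basal sums are therefore not read as a higher level in EpH4-PR RNA. Mesenchymal markers had 8 of 15 probes called lower and none higher, from Pdgfrb at -1.37 to Vim at -6.51, with a summed intensity of 4081 to 4640 in EpH4-PR RNA against 43500 to 49230 in the reference RNA. Blood markers had 4 of 7 probes called lower, those well above background in both channels running from Ptprc at -1.40 to Lyz2 at -3.42, and sums of 588 to 754 against 2376 to 2598. Endothelial (4 probes) and neural (5 probes) markers gave no call. The reference RNA thus held more mesenchymal and blood marker signal beside the 7 Hox probes that were lower in EpH4-PR RNA, and the part of these markers in the Hox ratios was not tested. The progesterone receptor gene Pgr had 2 probes, with ratios of 0.05, -0.01 and -0.36, and -0.12, -0.18 and -0.27, and neither exceeded the negative controls in EpH4-PR RNA on all 3 arrays. Whether these probes match the transfected receptor is not given in the sources used here, so they do not check the transfection.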

How the data were processed

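RNA of EpH4-PR cells and a common reference RNA were measured on 3 two-colour 44k mouse arrays. The authors deposited scanner output (Agilent Feature Extraction 8.1.1.1) with the mean, median and local background intensity of each spot in both channels, processed intensity, flags and the log10 of Cy5 divided by Cy3. A deposited table of the authors' own fold changes and p-values was not used. Mean intensity was corrected with normexp (offset 50) over the local median background and normalized by loess within each array (control spots at weight 0) in R 4.3.3 with limma 3.58.1. Control spots and outlier spots (150, 18 and 3 per array) were left out, spots of a probe were averaged, with different probes of 1 gene treated separately. The log2 ratio was tested against 0 with lmFit and eBayes over 41174 probes with Benjamini-Hochberg adjustment. The code was tested on simulated data. With 3 arrays the number of arrays limits the precision.

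Members and lists were chosen with earlier results of these data known. Values are given on every array for each Hox probe well above background in at least 1 channel on all 3 arrays. From each other list, the called genes with the highest and lowest ratio that were well above background in both channels are named, beside genes that take part in a result. Single results of 2 genes are not reported here. A bound ("at least") sets the mean of the brighter channel against the higher of the dim probe's own signal and the lowest signal well above background. Of the 50 Hox probes, 44 carried a RefSeq accession that matched the gene table (GRCm38.p6), all with the same symbol; no coordinates of the probes are given, since the files name no build. Alternatives covered the background correction, normalization, spot statistic, filters, test and each array left out.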

Additional observations from a re-analysis of the deposited data

How the results depend on the processing

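No replicate block was fitted, since the 3 arrays form 1 group and each ratio already sets EpH4-PR RNA against the reference RNA on the same slide. The count of Hox probes called lower was 7 with the median spot intensity, a dim-probe filter, outlier spots kept and an intensity trend. It was also 7 with a t-test, with and without adjustment, and with each array left out (lowest 7, highest 7). In each of these settings it covered the same 7 probes. It was 13 with an offset of 0, 14 with the scanner's log ratio, 5 with no background correction, 6 with median centring and 9 with a background taken from the negative controls, an alternative chosen after seeing the data, as was the detection rule by negative controls. One Hox probe, Hoxc5 (1.30), was called higher with median centring. Over all probes, an offset of 0 gave 3115 higher and 3909 lower, the scanner's ratio 3616 and 3887, and median centring 7029 and 709, beside 928 and 1584. No background correction gave 684 higher and 1304 lower over all probes, and the background from negative controls 1145 and 1858.

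For the other lists, an offset of 0 gave 1 TALE probe higher, 1 flanking probe lower, 4 Polycomb higher and 1 lower, 3 Trithorax higher and 2 lower, 2 retinoic acid higher and 5 lower, and 1 geminin or boundary probe higher. The scanner's ratio gave 1 TALE higher and 5 lower, 1 flanking higher, 4 Polycomb higher and 2 lower, 3 Trithorax higher and 2 lower, 2 retinoic acid higher and 7 lower, and 1 geminin or boundary higher. No background correction gave 1 Polycomb and 0 Trithorax higher. Median centring gave 1 TALE lower, 1 flanking higher, 13 Polycomb, 11 Trithorax and 5 geminin or boundary higher, and 1 retinoic acid probe higher and 1 lower. The negative control background gave 1 Trithorax lower, and so did leaving out replicate 2 (lowest 0, highest 1).

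Some ratios near 0 changed sign, and the cause was not tested. With an offset of 0 it was Hoxc13 (0.0018), with no background correction Hoxc13 (0.0009), with the scanner's ratio Hoxb6 (0.0196), and with the median spot intensity Hoxb5 (-0.0033) and Hoxc13 (0.0102). With median centring they were Hoxa2 (-0.11), Hoxa4 (-0.046), Hoxa13 (-0.0445), Hoxb6 (0.26 and 0.41) and Hoxc4 (0.76). With the negative control background it was Hoxc13 (0.0226). With each array left out, the ratio ran from -0.0475 to 0.0248 for one Hoxa3 probe, from -0.10 to 0.0735 for Hoxb5, from -0.12 to 0.0008 for one Hoxb6 probe, from -0.0394 to 0.0554 for Hoxc13 and from -0.0707 to 0.074 for one Hoxd9 probe. The sign turned without replicate 3 in each. Signal close to background limits most of the Hox ratios, and without a dye swap the dye cannot be told apart from the RNA.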
